A study of Bos taurus with 6 samples.

Results

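Genes of the WNT, FGF and TGF-beta signalling families were followed in single bovine morulae, the compacting embryo before it forms a blastocyst cavity. Members were taken by name: symbols that begin with WNT, FZD, FGF, FGFR, BMP or SMAD and a digit, or with BMPR, ACVR or TGFB, plus NODAL, with BMP15 left out. This gave 73 genes of 13683 with a row of their own in some library. Of these, 67 are ligands, receptors or SMADs and 6 share only a name prefix with them. LRP5 and LRP6, the co-receptors of WNT signalling, were not analysed here.

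Each group held 3 embryos, each sequenced alone from polyA RNA with a full-length kit for low input. MAT2A-inhibited embryos were grown in 20 µM FIDAS-5, which blocks MAT2A, the enzyme that supplies cells with S-adenosylmethionine, their methyl donor. Control embryos received 0.1% DMSO, the vehicle. Both were made by in vitro fertilization, allocated at 72 h (day 3) with 8 to 16 cells, and cultured in mSOF with bovine serum albumin under 5% oxygen until 144 h (day 6). Whether the embryos of a group shared a culture is not in the labels, and a p-value here covers only how these 6 embryos vary.

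In WNT signalling, secreted WNT proteins bind Frizzled receptors on the cell surface and stabilise beta-catenin in the cytoplasm, which then acts with TCF factors in the nucleus. FGF ligands bind receptor tyrosine kinases that feed the RAS and ERK cascade, a pathway known in mammalian blastocysts for directing inner cells toward primitive endoderm. TGF-beta, activin, Nodal and BMP ligands assemble type I with type II receptor kinases. These phosphorylate SMAD2 and SMAD3 on the TGF-beta and activin side or SMAD1, SMAD5 and SMAD9 on the BMP side, and the phosphorylated SMADs enter the nucleus with SMAD4.

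Levels are given in FPKM, fragments per kilobase of transcript scaled to the size of the library. This unit corrects for transcript length, so genes can be set beside each other. Depth was 46500000 to 57700000 fragments in MAT2A-inhibited embryos and 53400000 to 59900000 in controls, so that 1 FPKM on a transcript of 1 kb stands for 46.5 to 59.9 fragments. The markers POU5F1, SOX2 and NANOG of pluripotent embryo cells were at 1 FPKM or more in each of the 6 embryos. SOX2 was at 45.2 to 50.8 FPKM in MAT2A-inhibited embryos and 27.6 to 41.5 FPKM in controls. NANOG was at 1.17 to 1.88 FPKM in MAT2A-inhibited embryos and 2.54 to 20.3 FPKM in controls. The groups did not overlap for either marker, as for 13.4% of all genes tested between the groups. The part of these 2 markers in the results below was not tested. EIF1AY, a gene of the Y chromosome, was at 38.2 and 106.9 FPKM in MAT2A-inhibited embryos 2 and 3, and listed at 0 in the other 4, where USP9Y, also of the Y chromosome, was at most 0.193 FPKM. In whole embryos, fewer cells of a type and less RNA per cell cannot be told apart.

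The first question was which ligands and receptors were present. A member was called present in a group with 1 FPKM or more in at least 2 of its 3 embryos. By this measure 27 of the 73 members were present in MAT2A-inhibited embryos and 28 in controls, with 26 present in both. The order of the 2 counts turns with the bound: at 0.5 FPKM they were 35 in MAT2A-inhibited embryos and 30 in controls. BMP2 was present only in the MAT2A-inhibited group and FGF2 and SMAD7 only in controls. However, each of these had values on both sides of 1 FPKM in both groups, and the BMP2 and FGF2 values may leave out fragments, as described below. Members at 1 FPKM or more numbered 25, 28 and 27 in MAT2A-inhibited embryos 1 to 3, against 28, 26 and 29 in controls 1 to 3. In all 6 embryos 17 members reached 1 FPKM, and 37 reached it in none. Of these 37, 14 were listed at 0 throughout, among them NODAL, WNT1, WNT3, FGF5 and the type I receptors ACVR1C and ACVRL1.

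**Figure D1:**
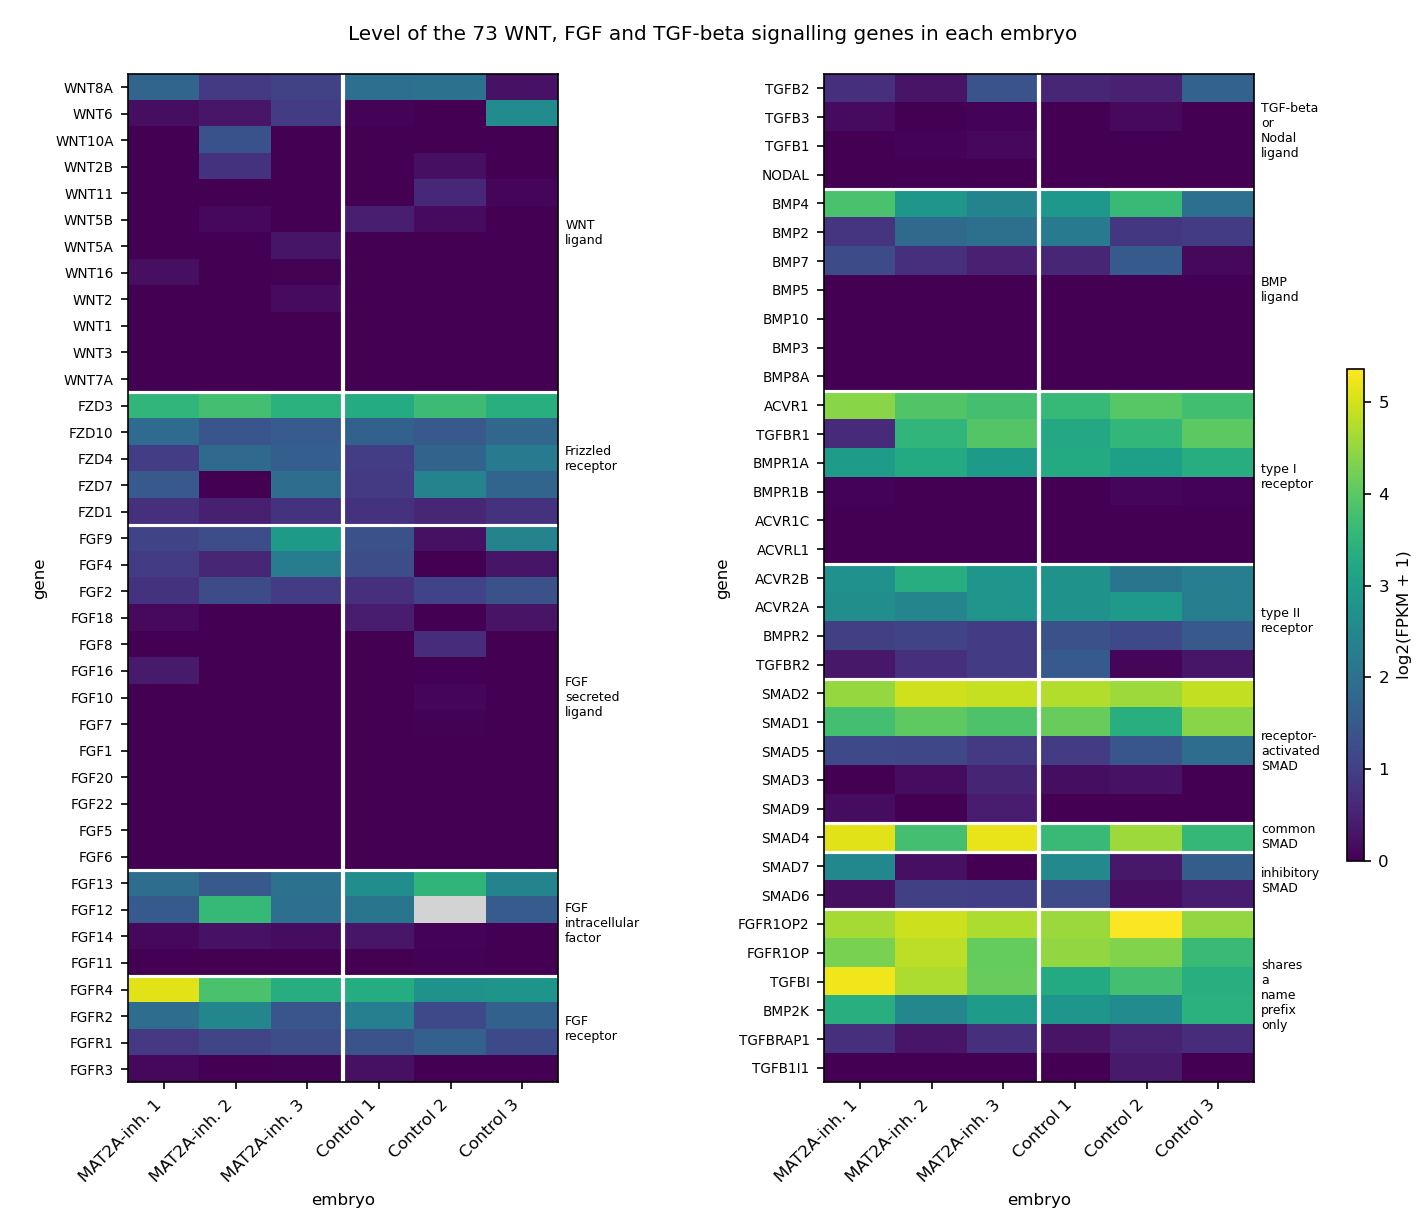
Level of each of the 73 members as log2(FPKM + 1), colour scale at the right, with 1 column per embryo (MAT2A-inhibited 1 to 3, then Control 1 to 3) and rows grouped by role; grey marks FGF12 in control 2, which has no row of its own. Ligand rows are mostly dark, while FZD3, FGFR4, ACVR1, SMAD1 and SMAD2 are bright in every embryo: 1 of 12 WNT ligands and 3 of 4 FGF receptors were present in both groups.

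Among the members, ligands were sparse and receptors were not. The counts cover only family genes with a row of their own. Others, such as WNT3A, FZD5 and ACVR1B, had none, so the counts do not describe whole families. Of 12 WNT ligands 1 was present in each group, of 13 secreted FGF ligands 1 in MAT2A-inhibited embryos and 2 in controls, and of 4 TGF-beta or Nodal ligands none. Among 7 BMP ligands 2 were present in MAT2A-inhibited embryos and 1 in controls. Present in both groups were 4 of 5 Frizzled receptors, 3 of 4 FGF receptors, 3 of 6 type I and 3 of 4 type II receptors. None of these counts was tested, since the members were chosen with earlier results known.

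Among WNT ligands WNT8A, which patterns mesoderm and the posterior axis in vertebrate embryos, was at 2.34, 0.889 and 1.07 FPKM in MAT2A-inhibited embryos 1 to 3, against 2.87, 2.97 and 0.195 FPKM in controls 1 to 3. The groups overlapped, with the lowest value in control 3. WNT6 was at 0.143, 0.247 and 0.914 FPKM in MAT2A-inhibited embryos, against 0.0345, 0 and 4.97 FPKM in controls. Its single value above 1 FPKM was in control 3, the embryo lowest for WNT8A. WNT10A, which lies beside WNT6 on chromosome 2, reached 1.55 FPKM in MAT2A-inhibited embryo 2, against at most 0.0121 FPKM in the controls. The other 9 WNT genes stayed below 1 FPKM in every embryo, with WNT2B highest at 0.732 FPKM.

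Frizzled receptors, which bind WNT ligands, were led by FZD3. FZD3 was at 10.5, 12.4 and 9.69 FPKM in MAT2A-inhibited embryos, against 8.81, 11.7 and 9.36 FPKM in controls, a spread of 1.41-fold between the lowest and the highest embryo. FZD10 was at 2.68, 1.68 and 1.89 FPKM in MAT2A-inhibited embryos, against 2.15, 1.82 and 2.41 FPKM in controls. FZD4 was at 0.969, 2.57 and 2.05 FPKM in MAT2A-inhibited embryos, against 0.965, 2.24 and 3.56 FPKM in controls. The groups overlapped for all 3, and every FZD3 value lay above every value of the other Frizzled receptors. FZD1 was at most 0.732 FPKM. FZD7 was at 1.83, 0 and 2.76 FPKM in MAT2A-inhibited embryos, against 0.873, 4.29 and 2.37 FPKM in controls. In control 3 an unannotated row of 6.87 FPKM covers the end of the FZD7 locus, so the FZD7 value there may leave out part of its fragments. FZD3 made up 64.2 ± 8.13% of the summed Frizzled FPKM in MAT2A-inhibited embryos and 57.7 ± 7.21% in controls (SD, n = 3 each).

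**Figure D2:**
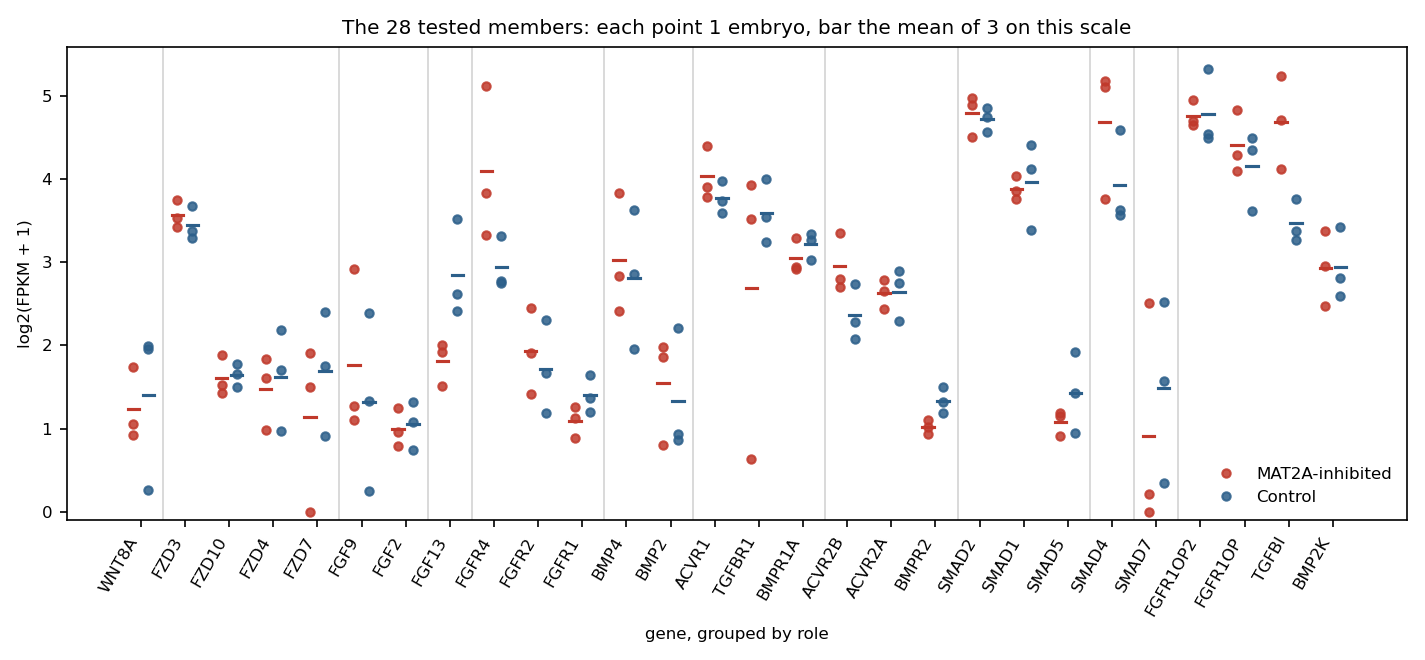
Log2(FPKM + 1) of the 28 members tested between groups, by role; each point is 1 embryo, MAT2A-inhibited left and Control right of each gene, and the bar is the mean of the 3. FGFR4 and TGFBI are the members whose 3 MAT2A-inhibited points all lie above the 3 controls, while FGF13 and BMPR2 lie below; TGFBR1 has 1 point far below the rest, at 0.554 FPKM.

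Secreted FGF ligands were low and varied between embryos. FGF4, which the inner cells of mouse embryos secrete, was at 0.934, 0.493 and 3.74 FPKM in MAT2A-inhibited embryos, against 1.42, 0 and 0.235 FPKM in controls. In MAT2A-inhibited embryo 3 its locus spanned 47649662 to 47657616, against 47656593 to 47657616 in every other embryo. The highest FGF4 value thus comes from a wider span than the rest. FGF9, which in mammals signals mainly through FGFR3 and FGFR2, was at 1.16, 1.41 and 6.57 FPKM in MAT2A-inhibited embryos, against 1.52, 0.187 and 4.24 FPKM in controls. Both ligands were highest in MAT2A-inhibited embryo 3 and lowest in control 2, and the groups overlapped. FGF2, known in cattle for raising interferon tau output of trophectoderm cells, was at 0.724, 1.38 and 0.942 FPKM in MAT2A-inhibited embryos, against 0.677, 1.11 and 1.5 FPKM in controls. Unannotated rows lie within the FGF2 locus, the highest at 1.84, 1.498 and 2.86 FPKM in MAT2A-inhibited embryos, against 0.5155, 1.02 and 1.65 FPKM in controls. The FGF2 values may therefore leave out fragments. The other 10 secreted FGF genes stayed below 1 FPKM in every embryo. FGF8 was at 0.596 FPKM in control 2 and listed at 0 in the others.

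The highest FGF levels came from genes whose proteins are not secreted. FGF12 and FGF13 belong to the intracellular FGF homologous factors, which bind sodium channels in neurons and do not activate FGF receptors. FGF13 (bosTau8 chromosome X, 22043207 to 22118277) was at 2.77, 1.84 and 3.01 FPKM in MAT2A-inhibited embryos, against 5.15, 10.4 and 4.33 FPKM in controls. Every MAT2A-inhibited value lay below every control value, and control 2 was highest. FGF12 was at 1.85, 11.1 and 2.86 FPKM in MAT2A-inhibited embryos, against 3.22 and 1.96 FPKM in controls 1 and 3. In control 2 it was joined with the neighbouring MB21D2 in 1 row of 13.1 FPKM, so FGF12 was not tested. The other 2 of this kind, FGF11 and FGF14, were at most 0.255 FPKM.

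FGFR4 was the leading FGF receptor in every embryo. FGFR4 (chromosome 7, 39936163 to 39946911) was at 33.6, 13.2 and 9.05 FPKM in MAT2A-inhibited embryos, against 8.92, 5.7 and 5.82 FPKM in controls. The groups did not overlap, but the margin was small, between 9.05 FPKM in MAT2A-inhibited embryo 3 and 8.92 FPKM in control 1. FGFR2 was at 2.76, 4.48 and 1.67 FPKM in MAT2A-inhibited embryos, against 3.95, 1.27 and 2.18 FPKM in controls. FGFR1 was at 0.846, 1.18 and 1.39 FPKM in MAT2A-inhibited embryos, against 1.57, 2.12 and 1.29 FPKM in controls. Unannotated rows lie within the FGFR1 locus, the highest at 9.34, 3.796 and 2.68 FPKM in MAT2A-inhibited embryos, against 2.72, 0.822 and 1.29 FPKM in controls, so the FGFR1 values may be incomplete. FGFR3, a receptor of FGF9, was at most 0.179 FPKM.

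Taken as a share of the summed FPKM of the 4 FGF receptors in an embryo, FGFR4 held 90.1, 70.0 and 74.6% in MAT2A-inhibited embryos, against 61.0, 62.7 and 62.6% in controls. The mean share was 78.2 ± 10.6% in MAT2A-inhibited embryos and 62.1 ± 0.960% in controls (SD, n = 3 each). The controls lay within 2 percentage points of each other, and the 3 MAT2A-inhibited embryos all lay above them. The share does not depend on the scaling between libraries, but it does contain the FGFR1 values named above. Its FGFR2 values may be incomplete too. The highest unannotated row within the FGFR2 locus was at 1.325, 3.12 and 1.54 FPKM in MAT2A-inhibited embryos. In controls 1 and 3 it was at 2.07 and 2.40 FPKM, and control 2 had none. Counting such rows could change the shares, the closeness of the controls and the separation of the groups, which was not tested. Markers of primitive endoderm, the lineage known to respond to FGF signals, were read beside these values. PDGFRA was at 24.1 to 38.2 FPKM in MAT2A-inhibited embryos and 38.8 to 73.5 FPKM in controls. SOX17 was at 0.126 to 2.08 FPKM in MAT2A-inhibited embryos and 0 to 0.106 FPKM in controls, too low to be tested. The groups did not overlap for either, by small margins, as for 13.4% of all tested genes. They overlapped for COL4A1, HNF4A and LAMB1. LAMB1 was at 9.84 to 38.2 FPKM in MAT2A-inhibited embryos, against listed values of 0, 0 and 17.5 FPKM in controls. Its unadjusted limma p was below 0.05, as for 6.64% of all tested genes, and it did not pass after adjustment. The 5 markers of this list summed to 43.2, 52.4 and 77.1 FPKM in MAT2A-inhibited embryos, against 75.7, 39.8 and 66.9 FPKM in controls. These sums overlapped between the groups. The mean of PDGFRA was lower in MAT2A-inhibited embryos, at 31.7 FPKM against 52.4 FPKM in controls. Means were higher for LAMB1 (20.2 against 5.82 FPKM), COL4A1 (3.74 against 1.99 FPKM), SOX17 (1.2 against 0.035 FPKM) and HNF4A (0.76 against 0.584 FPKM). The part of these markers in the FGF receptor values was not tested.

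**Figure D3:**
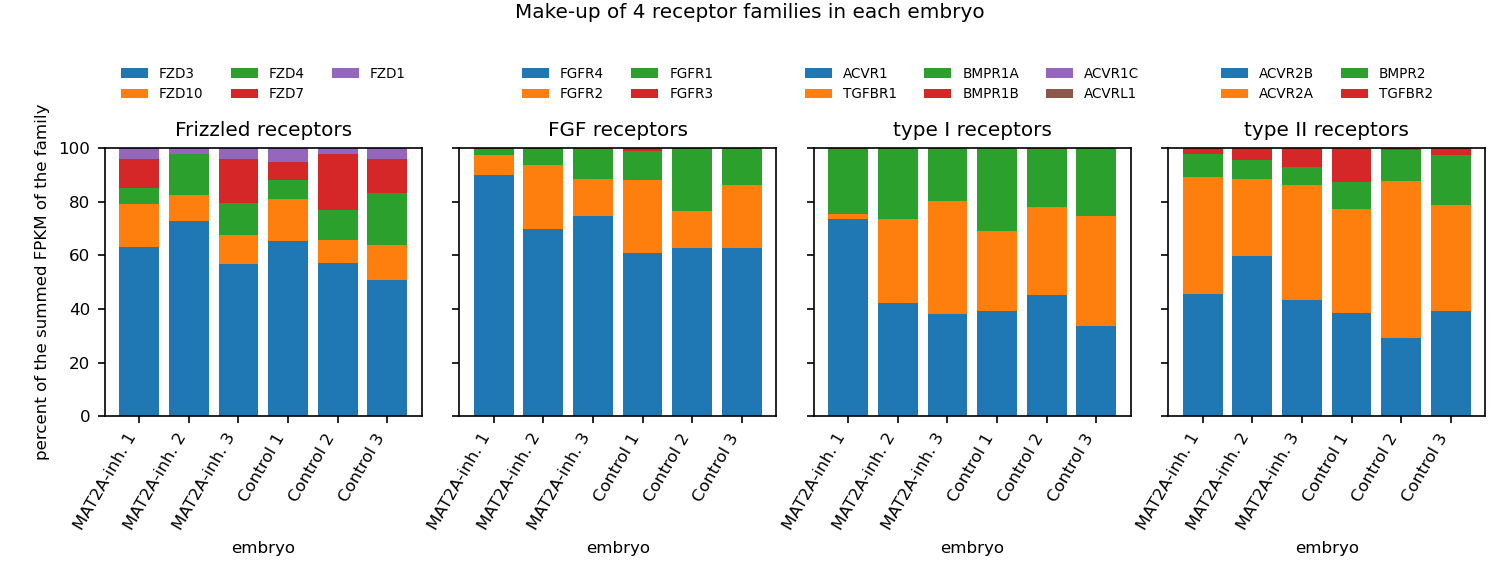
Make-up of the Frizzled, FGF, type I and type II receptor families in each embryo, as a percent of the summed FPKM of the family (vertical axis); columns are MAT2A-inhibited 1 to 3, then Control 1 to 3. FGFR4 takes 70.0 to 90.1% of FGF receptors in MAT2A-inhibited embryos and 61.0 to 62.7% in controls, and TGFBR1 takes 2.03% of type I receptors in MAT2A-inhibited embryo 1. Unannotated rows within the loci are not counted.

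BMP4 was the most abundant ligand of the TGF-beta superfamily among the members. BMP4, which signals through SMAD1 and SMAD5, was at 13.2, 6.13 and 4.31 FPKM in MAT2A-inhibited embryos, against 6.25, 11.3 and 2.87 FPKM in controls. BMP2, its close relative, was at 0.746, 2.63 and 2.96 FPKM in MAT2A-inhibited embryos, against 3.62, 0.825 and 0.903 FPKM in controls. The groups overlapped for both, and the embryos highest for BMP4, MAT2A-inhibited 1 and control 2, were the 2 lowest for BMP2. Unannotated rows lie within the BMP2 locus. The highest were at 3.03, 1.24 and 2.71 FPKM in MAT2A-inhibited embryos, against 3.01, 1.49 and 2.21 FPKM in controls. Within the BMP4 locus the highest unannotated row was at 1.11 FPKM in MAT2A-inhibited embryo 1, and at 5.51 and 2.12 FPKM in controls 1 and 2. The other embryos had none. The BMP4 locus ended at 66755024 in MAT2A-inhibited embryo 3 and control 3, and further on in the others. The BMP2 and BMP4 values and their order may therefore be incomplete. BMP7 ranged from 0.399 to 1.38 FPKM in MAT2A-inhibited embryos and from 0.0817 to 1.85 FPKM in controls. TGFB2 was at 0.646, 0.219 and 1.6 FPKM in MAT2A-inhibited embryos, against 0.496, 0.396 and 2.24 FPKM in controls. TGFB1 and TGFB3 were at most 0.119 FPKM, BMP5 at most 0.00616 FPKM, and BMP3, BMP8A and BMP10 were listed at 0 throughout.

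Of the type I receptors, which carry the signal to the SMADs, ACVR1, TGFBR1 and BMPR1A were present. ACVR1, a receptor of BMP ligands, was at 20.1, 13.99 and 12.8 FPKM in MAT2A-inhibited embryos, against 11.01, 14.7 and 12.3 FPKM in controls. BMPR1A, a receptor of BMP2 and BMP4, was at 6.66, 8.74 and 6.57 FPKM in MAT2A-inhibited embryos, against 8.65, 7.12 and 9.13 FPKM in controls. The groups overlapped for both. The BMPR1A locus began at 41817914 in every MAT2A-inhibited embryo, against 41735594, 41735617 and 41735651 in controls 1 to 3. Unannotated rows within it reached 1.96 FPKM in MAT2A-inhibited embryos and 4.91 FPKM in controls. The BMPR1A values thus come from wider spans in controls and may be incomplete. TGFBR1 (chromosome 8, 64570092 to 64641956), the type I receptor of TGF-beta itself, was at 0.554, 10.4 and 14.2 FPKM in MAT2A-inhibited embryos, against 8.45, 10.6 and 14.99 FPKM in controls. MAT2A-inhibited embryo 1 stood far below the other 5, and the highest unannotated row within its locus was at 4.11 FPKM. The same embryo had the highest ACVR1 value of the 6. BMPR1B was at most 0.0579 FPKM.

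Of the type II receptors, which bind ligand and activate the type I partner, ACVR2A and ACVR2B, which bind activins, led in every embryo. ACVR2A was at 5.3, 4.42 and 5.89 FPKM in MAT2A-inhibited embryos, against 5.72, 6.43 and 3.9 FPKM in controls. ACVR2B was at 5.51, 9.18 and 5.97 FPKM in MAT2A-inhibited embryos, against 5.66, 3.21 and 3.87 FPKM in controls. The groups overlapped for both. BMPR2 (chromosome 2, 91280846 to 91468320), which serves BMP ligands, was at 1.02, 1.15 and 0.916 FPKM in MAT2A-inhibited embryos, against 1.5, 1.27 and 1.82 FPKM in controls. Its groups did not overlap, at levels near the 1 FPKM bound. Unannotated rows within the BMPR2 locus reached 13.4 FPKM in MAT2A-inhibited embryo 2 and 3.37 FPKM in control 3, so its values may leave out fragments. TGFBR2, the partner of TGFBR1 for TGF-beta, was at 0.276, 0.65 and 0.945 FPKM in MAT2A-inhibited embryos, against 1.87, 0.0603 and 0.247 FPKM in controls. ACVR2A and ACVR2B together held 88.02 ± 1.47% of type II receptor FPKM in MAT2A-inhibited embryos and 81.3 ± 5.74% in controls (SD, n = 3 each). The highest unannotated row within the ACVR2A locus was at 5.87, 1.15 and 7.42 FPKM in MAT2A-inhibited embryos, against 1.84, 1.31 and 2.2 FPKM in controls. The ACVR2A values may therefore be incomplete, and the share contains these and the BMPR2 values.

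The SMADs were uneven within each branch. SMAD2 was at 21.6, 30.3 and 28.6 FPKM in MAT2A-inhibited embryos, against 25.8, 22.7 and 27.97 FPKM in controls. SMAD3, the other carrier of TGF-beta and activin signals, was at most 0.474 FPKM, so that SMAD2 held 98.4 to 100% of the pair in every embryo. In MAT2A-inhibited embryo 1, where SMAD3 was listed at 0, an unannotated row of 6 FPKM lies inside its locus. On the BMP side SMAD1 was at 12.5, 15.3 and 13.4 FPKM in MAT2A-inhibited embryos, against 16.3, 9.45 and 20.2 FPKM in controls. SMAD5 was at 1.28, 1.21 and 0.877 FPKM in MAT2A-inhibited embryos, against 0.928, 1.69 and 2.79 FPKM in controls. SMAD1 therefore held 84.8 to 94.6% of the summed FPKM of SMAD1, SMAD5 and SMAD9. SMAD9 was at most 0.338 FPKM.

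SMAD4, the partner shared by both branches (chromosome 24, 51013464 to 51045252), was high in some embryos of both groups. It was at 33.5, 12.5 and 35.2 FPKM in MAT2A-inhibited embryos, against 11.4, 22.9 and 10.9 FPKM in controls. MAT2A-inhibited embryos 1 and 3 and control 2 were the high ones. SMAD7, which blocks type I receptors, was at 4.68, 0.159 and 0 FPKM in MAT2A-inhibited embryos, against 4.76, 0.267 and 1.98 FPKM in controls. It was high in 1 embryo of each group and the groups overlapped. SMAD6, the inhibitor that acts mainly on BMP signals, ranged from 0.162 to 1.01 FPKM in MAT2A-inhibited embryos and from 0.165 to 1.34 FPKM in controls.

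Of the 6 genes that share only a prefix, TGFBI encodes a secreted matrix protein that TGF-beta induces in other cell types. TGFBI (chromosome 7, 49062891 to 49095978) was at 36.7, 25.1 and 16.3 FPKM in MAT2A-inhibited embryos, against 8.64, 12.5 and 9.38 FPKM in controls. Every MAT2A-inhibited value lay above every control value. FGFR1OP, a centrosome protein, was at 18.5, 27.3 and 16.1 FPKM in MAT2A-inhibited embryos, against 21.6, 19.3 and 11.2 FPKM in controls. FGFR1OP2 was at 24.0, 29.8 and 24.8 FPKM in MAT2A-inhibited embryos, against 22.3, 38.9 and 21.5 FPKM in controls. BMP2K, a kinase named for its induction by BMP2, was at 9.38, 4.57 and 6.72 FPKM in MAT2A-inhibited embryos, against 6.01, 5.03 and 9.67 FPKM in controls. Groups overlapped for these 3. TGFBRAP1 was at most 0.676 FPKM and TGFB1I1 at most 0.305 FPKM.

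The second question was whether levels differed between the groups. Of 73 members, 28 had 1 FPKM or more in at least 3 of 6 embryos and a row of their own in all 6. These 28 were tested within a limma fit over 7319 genes on log2(FPKM + 1), two-sided, with Benjamini-Hochberg adjustment over all 7319. None of the 28 passed at an adjusted p below 0.05, where 0.041% of all tested genes did. An unadjusted p below 0.05 was found for 3 of the 28 members, or 10.7%, beside 6.64% of all tested genes. TGFBI and FGFR4 were higher, beside 3.7% of all tested genes, and FGF13 was lower, beside 2.94%. Groups did not overlap for 4 members, or 14.3%, beside 13.4% of all tested genes, a share near the background. Of the 4, TGFBI and FGFR4 were higher (8.27% of all tested genes) and FGF13 and BMPR2 lower (5.18%). Of the 28, 12 had a log2 fold change above 0 with a median of -0.02, beside 54.2% of all tested genes and a median of 0.05.

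TGFBI averaged 26.0 ± 10.2 FPKM in MAT2A-inhibited embryos and 10.2 ± 2.04 FPKM in controls (SD, n = 3 each), a log2 fold change of 1.22 ± 0.34 (SE). The limma adjusted p was 0.688, and the exact permutation p was 0.1, the smallest that 3 against 3 can give. TGFBI had an unadjusted limma p below 0.05 under all 18 alternatives tried, with log2 fold changes from 0.95 to 1.77.

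FGFR4 averaged 18.6 ± 13.2 FPKM in MAT2A-inhibited embryos and 6.81 ± 1.83 FPKM in controls (SD, n = 3 each), a log2 fold change of 1.15 ± 0.47 (SE, limma adjusted p = 0.746, exact permutation p = 0.1). Its size rested on MAT2A-inhibited embryo 1, without which the log2 fold change was 0.64. The unadjusted limma p was below 0.05 under 10 of 18 alternatives.

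FGF13 averaged 2.54 ± 0.618 FPKM in MAT2A-inhibited embryos and 6.63 ± 3.30 FPKM in controls (SD, n = 3 each), a log2 fold change of -1.04 ± 0.38 (SE, limma adjusted p = 0.732, exact permutation p = 0.1). The gene is on chromosome X, and the embryos with EIF1AY, MAT2A-inhibited 2 and 3, had 1.84 and 3.01 FPKM beside 2.77 FPKM in MAT2A-inhibited embryo 1. The part of embryo sex in the difference was not tested. The unadjusted limma p was below 0.05 under 14 of 17 alternatives. It was not without those 2 embryos (log2 fold change -0.93), without control 2 (-0.71) or without MAT2A-inhibited embryo 2 (-0.89).

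The next members in order of p did not separate the groups, except BMPR2. ACVR2B had a log2 fold change of 0.59 ± 0.33 and SMAD4 of 0.75 ± 0.47 (SE, limma adjusted p = 0.779 and 0.788). Without MAT2A-inhibited embryo 2 SMAD4 was at 1.22, and without embryo 3 at 0.51. TGFBR1 had a log2 fold change of -0.90 ± 0.81 (limma adjusted p = 0.83), which turned to 0.13 without MAT2A-inhibited embryo 1, so its sign rests on that library. BMPR2 was at -0.32 ± 0.29 and FGFR1 at -0.31 ± 0.30 (limma adjusted p = 0.83 and 0.84). The median SE over the 28 members was 0.35, beside 0.34 over all tested genes.

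**Figure D4:**
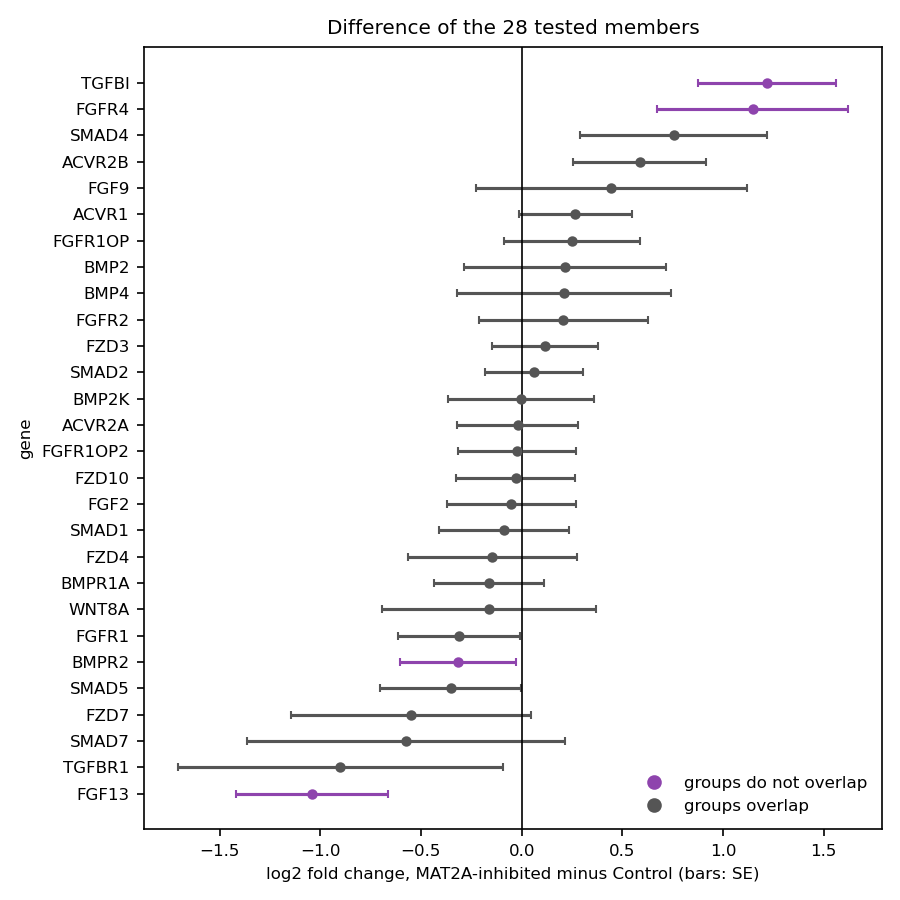
Log2 fold change, MAT2A-inhibited minus Control, of the 28 tested members with its SE as bars; purple marks members whose groups do not overlap. Values run from -1.04 for FGF13 to 1.22 for TGFBI, and 12 of 28 lie above 0.

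Other genes of the 3 pathways were read from lists of modulators and cytoplasmic components. Of 23 tested genes of the WNT list, none passed limma over all genes tested, none had an unadjusted p below 0.05, and 12 had a log2 fold change above 0 (median 0.01). RSPO3, a secreted enhancer of WNT signalling, averaged 25.7 ± 6.53 FPKM in MAT2A-inhibited embryos and 17.3 ± 2.04 FPKM in controls (SD, n = 3 each), a log2 fold change of 0.53. AXIN1, a scaffold of the complex that degrades beta-catenin, averaged 2.88 ± 0.0678 FPKM in MAT2A-inhibited embryos and 1.79 ± 0.421 FPKM in controls, a log2 fold change of 0.49. Groups did not overlap for these 2 genes and the RSPO receptor LGR4, 3 of 23, a share near the 13.4% of all tested genes. PORCN, the enzyme that attaches a lipid to WNT proteins, averaged 5.62 ± 1.34 FPKM in MAT2A-inhibited embryos and 9.67 ± 4.58 FPKM in controls, a log2 fold change of -0.63. CTNNB1, beta-catenin itself, averaged 91.4 FPKM in MAT2A-inhibited embryos and 102.5 FPKM in controls, and the kinase CSNK1A1 averaged 109.3 FPKM in MAT2A-inhibited embryos and 120.9 FPKM in controls.

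Of 17 tested genes of the FGF and ERK list none passed and none had an unadjusted limma p below 0.05, and 12 had a log2 fold change above 0 (median 0.17). SPRED1, an inhibitor of RAS signalling, averaged 11.1 ± 1.45 FPKM in MAT2A-inhibited embryos and 7.50 ± 1.51 FPKM in controls (SD, n = 3 each), a log2 fold change of 0.51, and its groups did not overlap, as for 13.4% of all tested genes. MAP2K1, the kinase that activates ERK, had a log2 fold change of 0.56, and the feedback inhibitor SPRY2 had 0.34. NRAS averaged 46.2 FPKM in both groups and the adaptor GRB2 46.5 FPKM in MAT2A-inhibited embryos and 41.6 FPKM in controls. Genes that ERK activity induces in other systems were at uneven levels. EGR1 was at 8.96 to 14.5 FPKM in MAT2A-inhibited embryos and 6.45 to 10.7 FPKM in controls, and DUSP5 at 8.29 to 14.8 FPKM in MAT2A-inhibited embryos and 7.21 to 10.1 FPKM in controls. DUSP6, ETV5, SPRY4 and ETV1 were below 1 FPKM in every embryo, with DUSP6 highest at 0.843 FPKM, and DUSP4 was listed at 0.

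Of 17 tested genes of the TGF-beta, activin and BMP list none passed limma over all genes tested, and 2 had an unadjusted p below 0.05, 1 in each direction (median log2 fold change 0.04), beside 6.64% of all tested genes. NCLN, which antagonises Nodal signals in zebrafish, averaged 22.9 ± 5.80 FPKM in MAT2A-inhibited embryos and 8.72 ± 4.97 FPKM in controls (SD, n = 3 each), a log2 fold change of 1.41. STRAP, a protein that binds TGF-beta receptors and SMAD7, averaged 84.3 ± 8.86 FPKM in MAT2A-inhibited embryos and 135.4 ± 33.4 FPKM in controls, a log2 fold change of -0.65. Groups did not overlap for these 2 genes, HGS and TAB1, 4 of 17, beside 13.4% of all tested genes. FSTL1, a secreted relative of follistatin, had a log2 fold change of 0.68, and PPM1A, a phosphatase of SMADs, averaged 63.0 FPKM in MAT2A-inhibited embryos and 61.5 FPKM in controls. ID1 and ID2, which BMP signals induce in many cells, were at 6.25 FPKM or more in every embryo, and ID3 was at 0.144 to 1.57 FPKM. LEFTY2, an antagonist of Nodal, was at most 0.0959 FPKM and the activin subunit INHBB was listed at 0 throughout.

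For BMP4, WNT8A, FGF9 and TGFB2 the difference between group means was smaller than the SD within either group, and their levels were set beside markers of the trophectoderm, the outer layer of the blastocyst. The 5 markers CDX2, GATA3, KRT8, KRT18 and DAB2 summed to 156, 341.8 and 466.4 FPKM in MAT2A-inhibited embryos 1 to 3, against 271.6, 96.9 and 1001.1 FPKM in controls 1 to 3. KRT8 and KRT18 carried most of the range of this sum, KRT8 being at 38.6 to 229.9 FPKM in MAT2A-inhibited embryos and 4.49 to 400.5 FPKM in controls, while CDX2 and DAB2 followed other orders. BMP4 ran in the opposite order to the sum except that MAT2A-inhibited embryo 1, at 13.2 FPKM, exceeded control 2, at 11.3 FPKM, which had the lowest marker sum. The BMP4 values may leave out fragments, as described above, and counting these could change this order, which was not tested. WNT8A was likewise lowest in control 3. FGF9 and TGFB2 were highest in MAT2A-inhibited embryo 3 and control 3, the 2 embryos with the highest marker sums, and so was WNT6. These genes were picked after their values were seen, and the part of trophectoderm RNA in their levels was not tested.

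**Figure D5:**
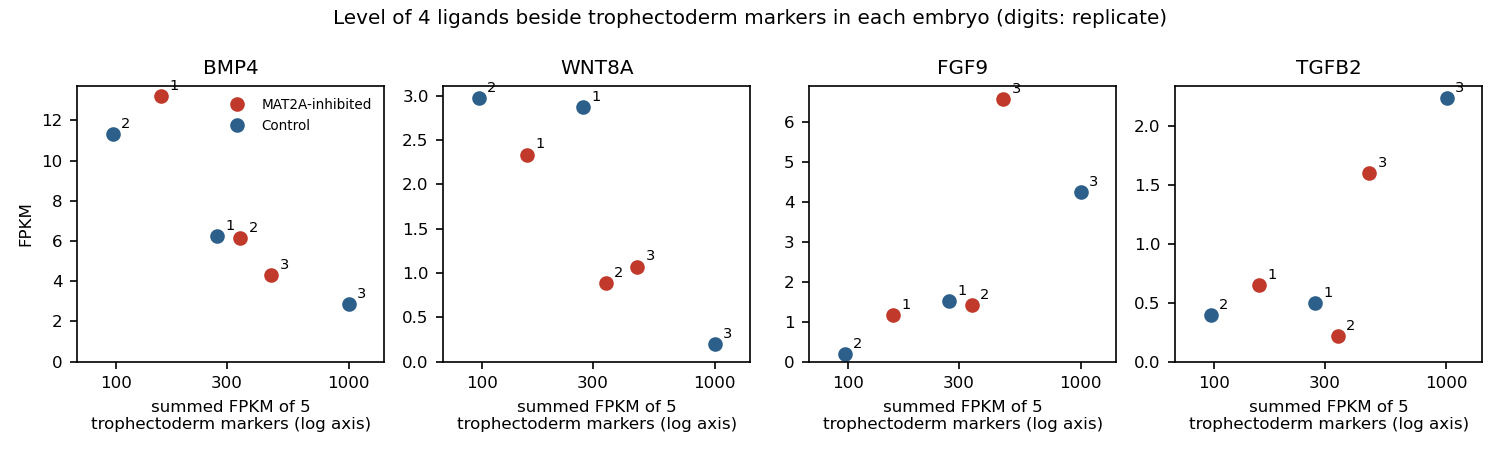
FPKM of BMP4, WNT8A, FGF9 and TGFB2 (vertical axes) against the summed FPKM of 5 trophectoderm markers (horizontal, log axis); each point is 1 embryo, red for MAT2A-inhibited and blue for Control, with its replicate number. BMP4 and WNT8A are lowest in control 3, at 1001.1 FPKM of markers, and FGF9 is lowest in control 2, at 96.9 FPKM. Unannotated rows within the loci are not counted.

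Control 2 had the highest values of BMP7, FGF8, FGF13 and FZD7 and of a pair of secreted or membrane inhibitors. The WNT inhibitor DKK1 reached 29.0 FPKM in control 2, while no other embryo exceeded 5.27 FPKM. BAMBI, a receptor decoy for TGF-beta and BMP signals, reached 18.6 FPKM there, while no other embryo exceeded 4.14 FPKM. WLS, which carries WNT proteins to the cell surface, was lowest there, at 0.0543 FPKM against 2.05 FPKM or more in the others. Of 12 markers of cumulus and granulosa cells, 5 were at 1 FPKM or more in control 2 against 2 to 4 in the others. The markers did not all move together. LUM, DCN, CYP19A1 and VIM were highest in control 2, at 4.81, 11, 1.34 and 0.501 FPKM. No other embryo exceeded 0.74 FPKM for LUM, 0.73 FPKM for DCN, 0.334 FPKM for CYP19A1 or 0.0109 FPKM for VIM. COL1A2 was lowest in control 2 at 0.231 FPKM, and SERPINE2 was at 92.9 FPKM there beside 121.8 FPKM in control 1. HAS2 was listed at 0 there, but was at most 0.0935 FPKM in any embryo. Their summed level was 46.2 to 84.0 FPKM in MAT2A-inhibited embryos and 61.9 to 129.5 FPKM in controls, with 112.6 FPKM in control 2 and PTX3 listed at 0 in all 6. DKK1, BAMBI and WLS were named after their values were seen, and the part of other cells in these levels was not tested.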

How the data were processed

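Each library came as a gene table written by Cufflinks, and the authors deposited its values as FPKM, per the file headers. TopHat2 2.0.14, Cufflinks 2.2.1 and bosTau8 come from the submitters' processing notes. Settings and annotation were not given in the sources used here. Locus spans differ between the tables, so a gene's fragments can sit partly in an unannotated row. Rows of 1 symbol were summed, and of 13295 symbols in all 6 libraries 110 with a merged row or without the status OK were left out. An exact 0 can be a failed estimate and is described as listed at 0. Depth was read from confidence bounds at short unannotated loci, where values are multiples of 1 fragment (99.9 to 100% whole within 0.05).

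Genes at 1 FPKM or more in 3 of 6 libraries were tested with limma 3.58.1 (R 4.3.3) after a log2(FPKM + 1) transform, which understates the change of low genes, using a variance trend. The procedure was tested on simulated data. Full statistics are given for the 8 members with the smallest p and those without overlap. Of each pathway list the 3 smallest p and 2 highest means are named, and genes beyond this rule were named after their values were seen. The members and lists were chosen with earlier results of these data known. Positions are the narrowest span in the files. Alternatives were other scalings, a pseudocount, filters, no trend, array weights, a replicate block, 1 row per symbol and left-out libraries.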

Additional observations from a re-analysis of the deposited data

How the results depend on the processing

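No member passed under any of the 18 alternatives, and of 301 recomputed fold changes of 17 named genes 300 kept their direction and their side of the threshold; TGFBR1 turned to 0.127 without MAT2A-inhibited replicate 1, the library at 0.554 FPKM, and ranged from -1.516 to 0.127 when 1 library was left out. Over all genes 3 passed, against 1 with no filter, 1 with a mean of at least 5 FPKM, 1 with the replicate block, 5 with array weights, 0 without genes with a 0, 0 without the 2 libraries with Y-linked transcripts, and 0 to 8 when 1 library was left out (0 without any MAT2A-inhibited one, 2, 3 and 8 without controls 1, 2 and 3); the cause was not tested. The replicate block changed no call of a member. Same-numbered embryos deviated together with r = 0.046, 0.103 and 0.191. MAT2A-inhibited replicate 1 correlated better with control 2 (0.102) and had -0.138 with control 3. MAT2A-inhibited replicate 2 had -0.072 and -0.046 with controls 1 and 3, and replicate 3 had 0.026 and -0.212 with controls 1 and 2. The labels name no pairs, and the numbers were not taken as pairs. The order of the groups in members present, 27 in MAT2A-inhibited embryos and 28 in controls, turned at 0.5 FPKM (35 and 30) and with TPM scaling (30 and 29); at 5 FPKM it was 15 and 15, and with 1 library left out 21 to 23 and 21 to 24. With 3 embryos a group and many members near 1 FPKM, a missing call does not show equal levels.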
